A study of Mus musculus with 4 samples.

Results

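Lambda light chain B cells are the B lymphocytes whose antigen receptor carries a lambda rather than a kappa light chain. Among 16528 lung immune cells, 382 were assigned to them by having more lambda than kappa constant gene RNA. They were chosen from raw UMI counts (unique molecular identifiers, each counting 1 captured RNA molecule). A B cell had at least 200 detected genes, at most 10% of its UMIs from mitochondrial genes, at least 2 UMIs of Cd79a and Cd79b together, a UMI of Ms4a1, Ighd, Fcer2a or Pax5, and no Cd3e UMI. It counted as lambda when the UMIs of Iglc1, Iglc2 and Iglc3 came to at least 2 and exceeded those of Igkc, and as kappa when Igkc was the greater. The gate took 3802 of the 15181 cells that passed the gene and mitochondrial limits. Of these 3802, 382 were lambda (10.05%), 3402 were kappa and 18 were neither.

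The cells were live CD45.2+ immune cells sorted from the lung tissue of 10-week-old C57BL/6J mice and profiled with a Chromium 3-prime v3 kit that reads the ends of transcripts. The Lmna KO mice were Lmna-flox/flox Vav1-cre+/- and the WT mice Lmna-flox/flox Vav1-cre-/-, with 2 mice and 2 libraries of each genotype. Every mouse thus carried the floxed alleles, and the Vav1 promoter drives Cre, the enzyme that deletes floxed DNA, across the blood-forming lineage. Cre was present in the Lmna KO libraries alone, so an effect of Cre and an effect of Lmna loss cannot be told apart. Which exons are floxed is not stated, so reads from the 3-prime end of Lmna may lie outside the deleted stretch and check nothing. The p-values below rest on these 4 libraries. For genotypes within a cell class they measure the spread between libraries of a genotype. For 2 cell classes compared within libraries they measure how much the difference varied from library to library, with differences between libraries taken out.

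A developing B cell rearranges its kappa light chain genes before its lambda genes, and turns to lambda mostly after kappa joining fails or yields a receptor that binds self. In mice lambda cells are a minority of B cells. The mouse lambda locus holds few variable genes: Iglv1 joins mostly to Iglc1 or Iglc3, and Iglv2 and Iglv3 join to Iglc2. Cd79a and Cd79b form the signalling pair of the receptor, and Vpreb3 encodes a protein of the endoplasmic reticulum that binds newly made immunoglobulin chains.

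The constant genes that chose the cells are close relatives, and how well 3-prime reads tell them apart bears on every lambda UMI. All 3 lie on the minus strand of chromosome 16 (GRCm38, the build mm10, GENCODE M21 annotation): Iglc1 (ENSMUSG00000105906) at chr16:19061618-19062071, Iglc3 (ENSMUSG00000105547) at chr16:19065230-19065681 and Iglc2 (ENSMUSG00000076937) at chr16:19198396-19200351. The same 90-base stretch of the coding part is shown for each, read 5′ to 3′ along the transcript, with capitals where a base differs from Iglc2.
Iglc1: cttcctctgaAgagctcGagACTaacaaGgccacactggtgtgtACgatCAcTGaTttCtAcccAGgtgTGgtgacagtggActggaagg
Iglc2: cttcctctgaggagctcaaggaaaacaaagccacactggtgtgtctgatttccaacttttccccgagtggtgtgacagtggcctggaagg
Iglc3: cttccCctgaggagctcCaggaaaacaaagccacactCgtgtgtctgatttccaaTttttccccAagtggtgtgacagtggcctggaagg
Iglc3 differed from Iglc2 at 5 of the 90 bases and Iglc1 at 20. Over the whole coding part Iglc3 was 96.5% identical to Iglc2, and over the 3-prime end after the stop codon 91.1%. Iglc1 was 73.2% and 51.1% identical to Iglc2 over the same stretches. Reads of Iglc2 and Iglc3 may therefore have been shared out or dropped by the counting, and their UMIs were added up. Iglc1 was kept apart.

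The libraries held 21780914 and 21849805 UMIs in Lmna KO, and 26433722 and 27045250 in WT, with 3860 to 4322 cells each. Lambda cells supplied 511900 and 446463 UMIs in Lmna KO, and 545631 and 489686 in WT. Only 27 of 16501 barcodes occurred in more than 1 library, and none of them belonged to lambda cells in more than 1 library. Lmna, whose reads may not check the labels for the reason given above, had 16 and 24 UMIs in kappa cells of Lmna KO and 137 and 65 in WT. The log2 fold change was -2.22 ± 0.32 (adjusted p = 0.00366, edgeR). Without cells holding 5 or more UMIs of other cell types, 13 and 21 UMIs remained in Lmna KO and 45 and 24 in WT, and the fold change of -1.06 did not pass (adjusted p = 0.32). Without marked doublets it was -1.77 (adjusted p = 0.203). A doublet score marked 14 of 382 lambda cells and 108 of 3402 kappa cells. At least 5 UMIs of genes that define other cell types were found in 35 lambda cells (9.16%) and 216 kappa cells (6.35%). Per library these were 11 and 3 lambda cells in Lmna KO, and 10 and 11 in WT. A lambda cell of the first Lmna KO library held 4356 UMIs of the epithelial and stromal list, 96.9% of that list's UMIs in the lambda cells of the library. Results below are given for all lambda cells, and where they change also for cells with fewer than 5 such UMIs, an alternative chosen after the data had been seen.

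By the values that chose them, the lambda cells ranged from cells with no Igkc UMI to cells with nearly as many Igkc as lambda UMIs. No Igkc UMI was found in 154 of 382 cells (40.3%), 1 to 4 were found in 47, 5 to 19 in 98 and 20 or more in 83 (21.7%). Neither an Igkc nor an Igkv UMI was found in 144 cells. In 203 cells at least 90% of the light chain constant UMIs were lambda. Just inside the threshold, 78 cells had 50 to 60% lambda UMIs, with medians of 30 lambda and 25.5 Igkc UMIs. Just outside it, 194 kappa cells had 40 to 50%, with medians of 22.5 lambda and 29 Igkc UMIs, and 17 B cells had equal numbers. The rule on the greater count thus divided a continuous range. With stricter assignment (at least 5 lambda UMIs and a ratio of at least 5 to Igkc), 54 and 64 lambda cells were left in Lmna KO, and 56 and 50 in WT. The median lambda cell had 44 and 45 lambda UMIs in the 2 Lmna KO libraries, against 37 and 52 in the WT libraries, so the genotypes overlapped. The highest cell had 592 and 233 lambda UMIs in Lmna KO, and 163 and 432 in WT.

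**Figure D1:**
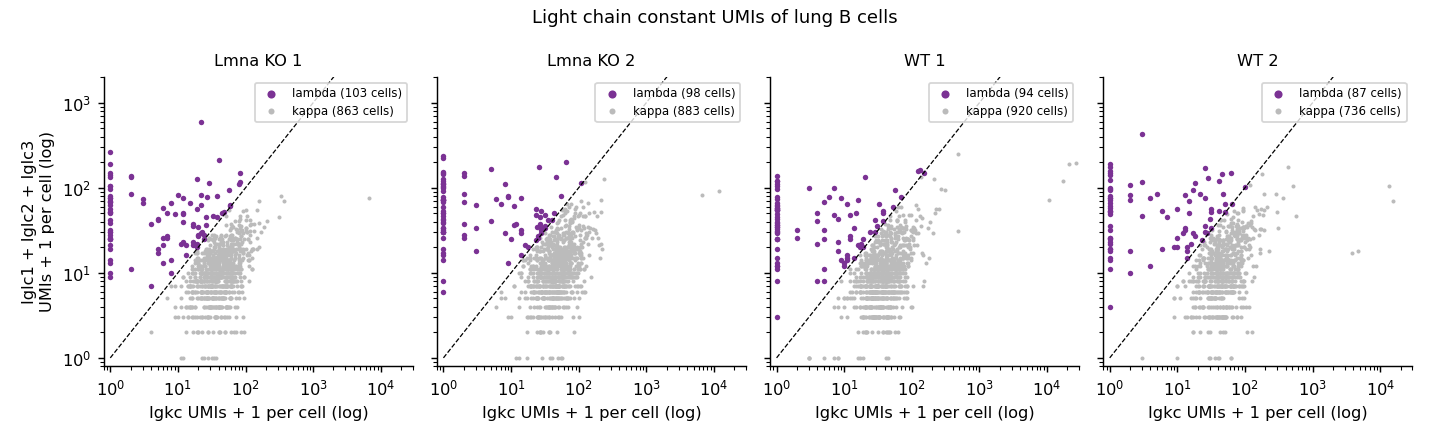
Lambda constant UMIs (Iglc1, Iglc2 and Iglc3 together) against Igkc UMIs, each plus 1 on a log axis, with 1 point per cell and 1 panel per library; the dashed line marks equal numbers. Lambda cells (103 and 98 in Lmna KO, 94 and 87 in WT) form a column at no Igkc and a cloud that meets the kappa cells along the line.

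Of the 5 markers of the labelled identity, Cd79a, Cd79b, Iglc1 and Iglc2 were used by the rule, so their presence checks nothing. Cd79a and Cd79b had medians of 13 to 17 and 7 to 9 UMIs per lambda cell, and Iglc1 and Iglc2 of 18 to 23 and 7.5 to 13.5. Vpreb3, which the rule did not use, had a UMI in 59.2% and 61.2% of lambda cells in Lmna KO, and in 53.2% and 65.5% in WT. The share was 51.6% to 59.9% in kappa cells, and 0.276% to 0.85% in T cells at a greater median depth (4614 to 5579.5 UMIs, against 3506 to 4084 in lambda cells). The T cells had at least 2 UMIs of Cd3d, Cd3e and Cd3g and no UMI of Cd79a or Cd79b, so they may understate the free RNA of B cells. With Cd79 UMIs allowed, a choice made after the data had been seen, 11.9% to 17.1% of T cells had one, and the Vpreb3 share was 2.12% to 2.75%. With each cell thinned to 1500 UMIs, the share was 34.8% to 42.2% in lambda, 28.7% to 36.4% in kappa and 0.092% to 0.179% in T cells. Ighm, the heavy chain of IgM, had a UMI in 98.9% to 100% of lambda cells and in 65.1% to 69.7% of T cells, with medians of 16 to 20 and 1 UMIs. The class-switched chains were rare: Igha had 39 UMIs in 16 lambda cells and Ighg2b 43 UMIs in 4, of which 36 lay in 1 cell. Vpreb3 and Ighm fit B cells. The Vpreb3 shares of lambda and kappa cells overlapped, so this marker does not tell the light chains apart.

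Lambda cells made up 10.7% (103 of 966, exact 95% interval 8.79 to 12.8%) and 9.99% (98 of 981, 8.19 to 12%) of light chain-assigned B cells in Lmna KO. In WT they made up 9.27% (94 of 1014, 7.56 to 11.2%) and 10.6% (87 of 823, 8.55 to 12.9%). The genotypes overlapped. The means were 10.3 ± 0.476% in Lmna KO and 9.92 ± 0.92% in WT (SD, n = 2 libraries each), a difference of 0.405 percentage points that did not pass an exact two-sided permutation test (p = 0.667, where 2 against 2 libraries cannot go below 0.333). These intervals, like all others here, cover counting error only. Lambda cells were about as deep as kappa cells: their median UMI count was 3506 and 3725.5 in Lmna KO and 4072 and 4084 in WT. Kappa cells had 3440 and 3859 in Lmna KO and 3918.5 and 3932 in WT (mean difference of lambda minus kappa 59.5, exact paired permutation p = 0.375, smallest possible 0.125). Cells with over 8000 UMIs made up 10.7% and 8.16% (Lmna KO) and 14.9% and 19.5% (WT) of lambda cells, and 5.21% and 6.12% (Lmna KO) and 8.15% and 9.92% (WT) of kappa cells.

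**Figure D2:**
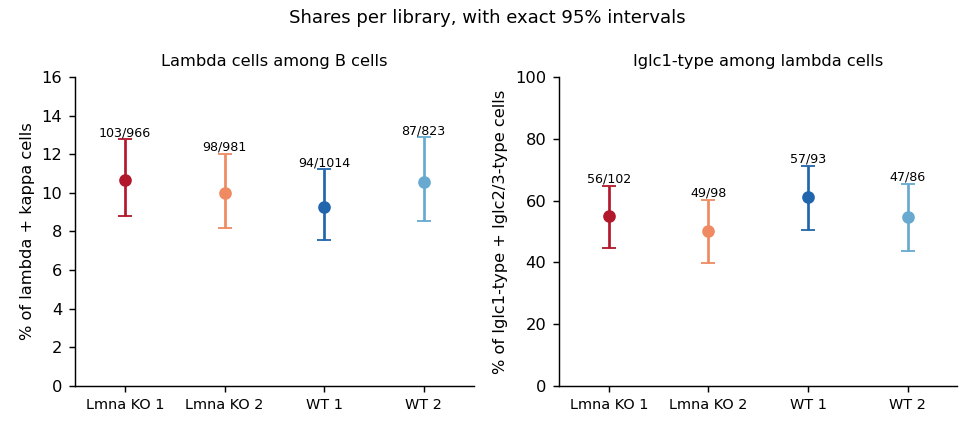
Percentages per library with exact 95% intervals: lambda cells among light chain-assigned B cells (left) and Iglc1-type cells among typed lambda cells (right), Lmna KO libraries left of WT. The intervals of all 4 libraries overlap in both panels.

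Within the lambda cells, the constant genes split the population into cells dominated by Iglc1 and cells dominated by Iglc2 and Iglc3. An Iglc2/3-type cell had more Iglc2 and Iglc3 than Iglc1 UMIs (170 cells), an Iglc1-type cell the reverse (209 cells), and 3 cells tied. The Iglc1-type share was 54.9% (56 of 102, 44.7 to 64.8%) and 50% (49 of 98, 39.7 to 60.3%) in Lmna KO, against 61.3% (57 of 93, 50.6 to 71.2%) and 54.7% (47 of 86, 43.5 to 65.4%) in WT. The means were 52.4 ± 3.47% in Lmna KO and 58 ± 4.7% in WT (SD, n = 2 each), and the exact permutation test gave p = 0.667.

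Both types held RNA of the constant genes they were not named for. Iglc2/3-type cells had medians of 5 Iglc1, 20.5 Iglc2 and 6 Iglc3 UMIs. Iglc1-type cells had medians of 34, 6 and 1, and kappa cells 0, 5 and 3. So Iglc2 was present in Iglc1-type lambda cells and in kappa cells at almost equal medians. A UMI of Iglc2 was found in 91.2% to 95.8% of kappa cells of a library but in 0.974% to 2.09% of T cells, and after each cell was thinned to 1500 UMIs in 74% to 80.7% of kappa and 0.346% to 0.628% of T cells. With Cd79 UMIs allowed, 4.24% to 6.20% of T cells had an Iglc2 UMI. Iglc1 was seen in 44.5% to 52% of kappa and 0.735% to 3.81% of T cells. Igkc was seen in 55.1% to 66% of lambda cells of a library, against 100% of kappa cells by the rule and 15.2% to 24.2% of T cells (17.9% to 28.6% with Cd79 UMIs allowed). After thinning the shares were 49% to 60.8% in lambda, 99.5% to 100% in kappa and 4.83% to 7.36% in T cells.

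**Figure D3:**
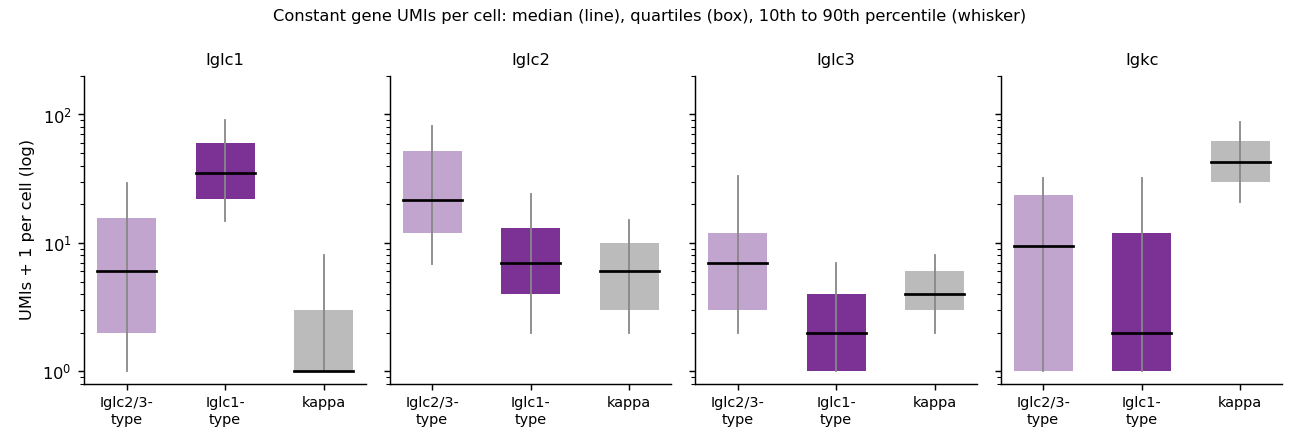
UMIs per cell, plus 1 on a log axis, of the 3 lambda constant genes and Igkc in Iglc2/3-type lambda cells, Iglc1-type lambda cells and kappa cells, all libraries together; lines are medians, boxes quartiles and whiskers the 10th to 90th percentile. Iglc2 sits at a median of 20.5 UMIs in Iglc2/3-type cells, at 6 in Iglc1-type cells and at 5 in kappa cells.

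Cells without an Igkc UMI were found in both types. No Igkc UMI was found in 32.9% of Iglc2/3-type and 46.9% of Iglc1-type cells, and 20 or more in 28.2% and 15.8%. By library, cells without Igkc made up 32.6% and 36.7% (Lmna KO) and 25% and 35.9% (WT) of Iglc2/3-type cells. Among Iglc1-type cells they made up 35.7% and 53.1% (Lmna KO) and 56.1% and 42.6% (WT). The Iglc2/3-type value was the lower of the pair in 4 of 4 libraries, but since Igkc and the lambda genes chose the cells this is a description and was not tested.

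The variable genes were seen in few cells. The kit reads 3-prime ends, and the variable part lies at the 5-prime end of the transcript. Iglv1 had a UMI in 4.85% and 8.16% of lambda cells in Lmna KO, against 19.1% and 18.4% in WT. It had one in 1.74% to 2.5% of kappa cells and in at most 0.085% of T cells. The genotypes did not overlap. After thinning to 1500 UMIs the share was 1.96% and 3.06% of lambda cells in Lmna KO, against 9.78% and 4.60% in WT, and 0.817% to 1.09% in kappa cells. On summed UMIs, Iglv1 stood at 11.9 and 21 CPM (UMIs scaled to the same normalised total in each library) in Lmna KO and 44.5 and 45.5 CPM in WT lambda cells, a log2 fold change of -1.47 ± 0.41 (standard error) that did not pass the adjusted threshold (adjusted p = 0.221, edgeR). Iglv2 had a UMI in 0 of 103 and 2 of 98 lambda cells in Lmna KO, where the count of 0 allows a level of up to 5.86 CPM, and in 3.19% and 10.3% in WT. In Iglc2/3-type cells its share reached 20.5% in a library, and in Iglc1-type cells 2.13%. Any Igkv gene had a UMI in 6.8% to 18.1% of lambda and 15.8% to 25.1% of kappa cells.

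Against kappa cells of the same libraries, lambda cells had less RNA of the MHC class II pathway. They had more RNA of a set of genes that includes Zbtb32, Tppp3, Zeb2, Sox4 and Cd38. The genes Ccr7, Cxcr4, Fcrl1 and Cd55, listed for naive B cells, were lower over all cells. Of these, Cxcr4 alone kept its call in cells with fewer than 5 UMIs of other cell types. Among 9109 testable genes, RNA of 71 was higher and of 72 lower in lambda cells at an adjusted p under 0.05 (1.57% called in either direction, 0.779% higher and 0.79% lower; edgeR quasi-likelihood test on UMIs summed per library and light chain, library as a block). In cells with fewer than 5 UMIs of other cell types, called the restricted cells and chosen after the data had been seen, 82 were higher and 67 lower of 8465 (1.76%, with 0.969% higher and 0.791% lower). In both fits 34 genes were higher, 47.9% of those called in all cells and 41.5% of those in the restricted cells, and 46 were lower, 63.9% and 68.7%. Without the library block, 1 gene was higher and 2 lower. Left-out libraries also moved the counts: 31 higher and 29 lower without the first Lmna KO library, 39 lower without the second, and 38 higher and 46 lower without the first WT library.

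The list with the most lower genes was MHC class II presentation, the pathway by which B cells load peptides and show them to CD4 T cells. Of its 15 genes, 9 were lower in lambda cells, against 0.79% of all genes, and 14 of 15 had a negative fold change. The median log2 fold change was -0.35, against 0 over all genes. Of the markers of other antigen-presenting cells in the same sums, 8 of 10 alveolar macrophage genes and 3 of 4 dendritic genes had positive fold changes, none of which passed the test. With fewer than 5 UMIs of other cells 8 of the 15 class II genes were lower, against 0.791% of all genes there, with a median of -0.28.

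H2-Aa, the alpha chain of the I-A molecule (ENSMUSG00000036594, chr17:34282744-34287823, minus strand), had 3730 and 3650 CPM (Lmna KO) and 2980 and 3530 CPM (WT) in lambda cells. In kappa cells it had 5040 and 4950 CPM (Lmna KO) and 4070 and 4550 CPM (WT). No lambda value reached the lowest kappa value. The log2 fold change was -0.42 ± 0.04 (adjusted p = 5.8e-07). H2-Ab1, the I-A beta chain, had 2580, 3060, 2170 and 2350 CPM in lambda cells of Lmna KO 1, Lmna KO 2, WT 1 and WT 2. It had 3430, 3690, 2930 and 2890 CPM in kappa cells of these libraries, a log2 fold change of -0.35 ± 0.04 (adjusted p = 3.05e-05). Within every library the lambda value was the lower.

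H2-Eb1, the beta chain of the I-E molecule (ENSMUSG00000060586, chr17:34305867-34316674, plus strand), stood at 1530, 3300, 1330 and 1350 CPM in lambda cells and 2020, 4160, 1740 and 1870 CPM in kappa cells of the same 4 libraries. The second Lmna KO library was high in both classes, and the log2 fold change within libraries was -0.40 ± 0.04 (adjusted p = 1.42e-05). Cd74, the invariant chain that escorts class II molecules, had 15000, 16700, 11500 and 14100 CPM in lambda and 18000, 18700, 14600 and 16400 CPM in kappa cells (log2 fold change -0.25 ± 0.03, adjusted p = 2.44e-05). H2-Eb2 had the largest fold change of the list, -1.14 ± 0.21, at 13.3 to 26.6 CPM in lambda and 34.6 to 56.9 CPM in kappa cells.

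The genes for peptide exchange moved the same way. H2-DMa, a chain of the H2-M editor that swaps peptides, had a log2 fold change of -0.40, and H2-Oa and H2-Ob, which form the inhibitor of H2-M, had -0.46 and -0.43. H2-DMb2 had -0.33 in all cells and -0.21 with fewer than 5 UMIs of other cells, where it no longer passed (adjusted p = 0.0616). The 6 other list members did not pass the test: Ciita, the master activator of class II genes (log2 fold change -0.32, adjusted p = 0.0545), Cd86 (-0.45, adjusted p = 0.0752), Cd40 (-0.28), H2-DMb1 (-0.18), Lgmn (-0.17) and Ctss (0.08). H2-Aa, H2-Ab1, H2-Eb1 and Cd74 passed in 14 of 16 alternatives each. They missed the threshold without the library block and under limits of 500 genes and 5% mitochondrial UMIs, which left 3 to 11 lambda cells a library. With stricter light chain assignment (at least 5 UMIs and a ratio of at least 5 to the other chain), H2-Aa had -0.48.

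**Figure D4:**
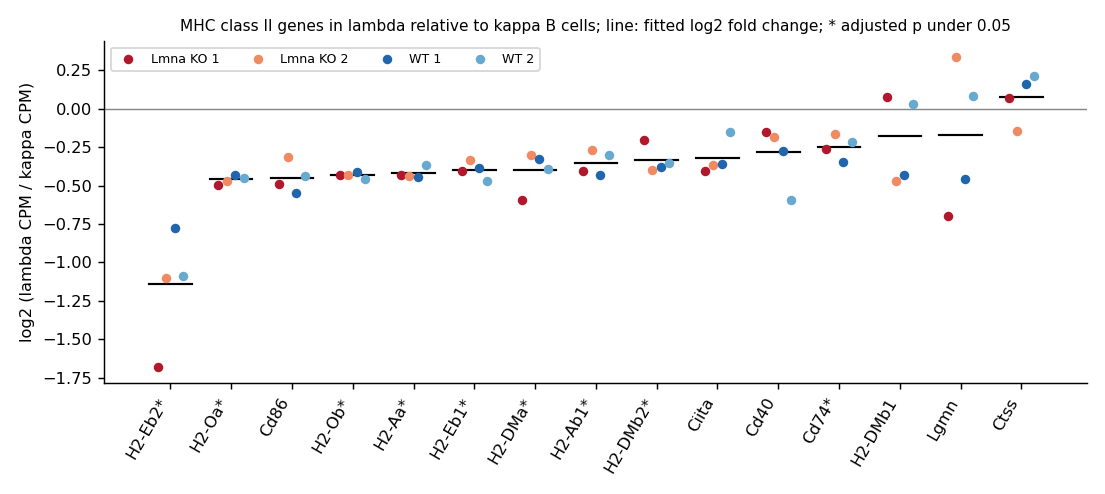
Log2 ratio of lambda to kappa CPM for the 15 MHC class II presentation genes, 1 point per library, with the fitted log2 fold change as a line; an asterisk marks an adjusted p under 0.05. The 4 libraries lie below 0 for 12 of the 15 genes.

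Many class II promoters hold a Y box, an inverted CCAAT element bound by NF-Y. The promoters of H2-Aa and H2-Eb1 are shown as examples (RefSeq, GRCm38.p6, 250 bases before to 50 after the start, 5′ to 3′ along the gene). Capitals mark CTGATTGG, searched on both strands.
H2-Aa, chr17:34287774-34288073, minus strand: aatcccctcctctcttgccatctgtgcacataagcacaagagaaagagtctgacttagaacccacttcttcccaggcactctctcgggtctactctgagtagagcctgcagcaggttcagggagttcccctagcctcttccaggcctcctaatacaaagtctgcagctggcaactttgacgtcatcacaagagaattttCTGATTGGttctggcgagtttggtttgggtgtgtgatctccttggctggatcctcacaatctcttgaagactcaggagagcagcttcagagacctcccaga
H2-Eb1, chr17:34305617-34305916, plus strand: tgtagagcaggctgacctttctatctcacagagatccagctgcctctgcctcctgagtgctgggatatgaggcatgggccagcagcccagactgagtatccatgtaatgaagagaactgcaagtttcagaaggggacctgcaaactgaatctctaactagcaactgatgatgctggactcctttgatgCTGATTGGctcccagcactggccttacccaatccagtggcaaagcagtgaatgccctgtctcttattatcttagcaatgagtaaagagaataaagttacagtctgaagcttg
The motif began 51 bases before the start of H2-Aa and 62 bases before that of H2-Eb1. It was found in 4 of the 10 class II list genes with a promoter in the table, and in 1346 of 32851 promoters (4.1%). The others of the 4 were H2-Eb2 and H2-Oa. No copy was found for H2-DMa, H2-DMb2 and H2-Ob, which were lower in lambda cells too. None was found either for H2-DMb1, Ctss and Lgmn, which did not pass. Whether the motif bears on the difference between lambda and kappa cells was not tested.

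Several genes of resting follicular B cells were lower in lambda cells. Of 15 measured list members, 4 were lower and 1 higher, against 0.79% of all genes lower and 0.779% higher, with a median log2 fold change of -0.22. Ccr7, the receptor that guides cells to T zones, had a log2 fold change of -0.35, Cxcr4 -0.37, Fcrl1 -0.53 and Cd55 -0.30, whereas Cd38 had 0.36. Of 16 alternatives each, Ccr7 and Cxcr4 passed in 9, Cd38 in 7, Cd55 in 6 and Fcrl1 in 5. Cd38 did not pass without either Lmna KO library or without the first WT library. In the restricted cells, Cxcr4 (-0.33) and Cd38 (0.45) were the members that passed, where 0.791% of all genes were lower and 0.969% higher. The median of the list there was -0.06. Cr2, complement receptor CD21, stood at 114, 99.6, 86.5 and 68.3 CPM in lambda cells and 144, 128, 151 and 126 CPM in kappa cells of Lmna KO 1, Lmna KO 2, WT 1 and WT 2 (log2 fold change -0.58 ± 0.12, adjusted p = 0.00631, and -0.43 in the restricted cells). The lambda values all lay below the kappa values. The rule genes Ighd and Fcer2a, given without a test, had fold changes of -0.43 and -0.47, and Ms4a1 0.26. Ighm had -0.27 on the sums with an adjusted p of 0.884. A single kappa cell of WT 1 held 11903 of the 46829 Ighm UMIs in the kappa cells of that library. The median cell went the other way, with 16 to 20 Ighm UMIs in lambda and 12 to 13 in kappa cells of a library.

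Genes induced early by receptor ligation were mostly on the lower side, with a median log2 fold change of -0.26. Cd83 (-0.40 ± 0.09, adjusted p = 0.0122) and Junb (-0.31 ± 0.06, adjusted p = 0.00521) were the 2 lower among 25 measured, against 0.79% of all genes. Of 22 measured in the restricted cells, 6 were lower, against 0.791% of all genes there: Nr4a1 (-0.58), Fos (-0.49), Ier2 (-0.35), Ccl4 (-1.95), Cd83 (-0.40) and Junb (-0.33), with a median of -0.30 over the list. Ccl4 had 0, 12, 5.14 and 5.86 CPM in lambda and 6.42, 9.71, 3.91 and 82.6 CPM in kappa cells of Lmna KO 1, Lmna KO 2, WT 1 and WT 2, so that lambda cells had the lower value in 2 of 4 libraries. Nr4a1, an orphan nuclear receptor induced by antigen receptor signals, had 93.9, 48.1, 111 and 41 CPM in the restricted lambda cells of Lmna KO 1, Lmna KO 2, WT 1 and WT 2. The kappa values were 108, 107, 124 and 104 CPM, the higher of the pair in 4 of 4 libraries. Over all cells Nr4a1 had -0.27 and an adjusted p of 0.826. Of 25 receptor signalling genes, Cr2 alone passed, and Cd22 (-0.07) was near 0.

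On the higher side stood genes listed for B-1 cells, the innate-like B cells of body cavities, and for memory cells. Of 16 measured B-1 list genes, 3 were higher and none lower, against 0.779% of all genes higher. Of the 16, 15 had positive fold changes and the median was 0.68, against 0 over all genes. In the same fit the alveolar macrophage list had a median of 0.88 and the monocyte and neutrophil list of 0.87, with no gene passing. In the restricted cells the medians were 0.83 for the B-1 list, -0.31 over the 2 macrophage genes measured and -0.08 over the 4 monocyte and neutrophil genes. UMIs of macrophage, monocyte and neutrophil genes were among those that chose the restricted cells, so the fall of these medians was fixed by the choice. The part of other cells' RNA in the values of the B-1 list was not tested. Zbtb32, a transcriptional repressor of B cells, had 24.7, 19.9, 40.5 and 29 CPM in lambda cells and 7.93, 11.4, 19.6 and 18 CPM in kappa cells of the same libraries (log2 fold change 1.03 ± 0.25, adjusted p = 0.0357, and 1.03 in the restricted cells). Each lambda value exceeded every kappa value, but Zbtb32 passed in 6 of 15 alternatives, and lost its call without each of the 4 libraries in turn and with DESeq2. Tppp3 had 20.9, 50.9, 210 and 66.2 CPM in lambda and 15.6, 10.1, 84.5 and 34.6 CPM in kappa cells (1.25 ± 0.20, adjusted p = 0.00392), with the first WT library high in both. Anxa2 (0.72) passed in all cells but not in the restricted ones, and Plscr1 (1.78) the other way round. Bhlhe41, a transcription factor of B-1 cells, had 0.70 with an adjusted p of 0.0854.

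From the memory and age-associated list Zeb2 (0.55 ± 0.09, adjusted p = 0.00152) and Cd44 (0.45) were higher of 11 measured, against 0.779% of all genes. In the restricted cells Zeb2 (0.60) and Zbtb20 (0.35) were higher of 8 measured. From the transitional list, Sox4, a transcription factor of early lymphocytes, was higher (0.82 ± 0.19, adjusted p = 0.0258). It passed in 7 of 15 alternatives, and likewise lost its call without each library and with DESeq2. Zeb2 passed in 13 of 16 and Cd44 in 4 of 16. Among the restricted cells Sox4 (1.03), Cd24a (0.30), Mcl1 (0.24) and Vpreb3 were higher and Ms4a4c (-0.40) lower of 12 genes. Of all genes there, 0.969% were higher and 0.791% lower. Vpreb3 then stood at 536, 438, 324 and 481 CPM in lambda and 357, 355, 290 and 407 CPM in kappa cells of Lmna KO 1, Lmna KO 2, WT 1 and WT 2 (0.33 ± 0.07, adjusted p = 0.00305), higher in lambda in 4 of 4 libraries. Over all cells its fold change was 0.22 (adjusted p = 0.312). Ebf1, a master factor of the B lineage, had 0.16 in the restricted cells (adjusted p = 0.0452). From the marginal zone list Plac8 (0.81) and Mzb1 (0.30) were higher there, and Cr2 lower, of 11 measured. Over all cells no gene passed among 7 measured of the germinal centre list, 12 of survival receptors, 20 of the nuclear envelope, 16 p53 targets and 19 interferon-stimulated genes. Among the restricted cells Stmn1, a microtubule regulator on the germinal centre list, was lower (-1.48 ± 0.36, adjusted p = 0.00792).

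Among the genes named by size of fold change, those higher in both fits were Lifr, a cytokine receptor (1.93), Gas7 (1.5), Tubb6, a beta tubulin (1.49), Prkar2b, a regulatory subunit of protein kinase A (1.42), Nfil3, a basic leucine zipper factor (1.26), and Tppp3. Gas7 had 51.3, 15.5, 77.3 and 37.2 CPM in lambda and 10.4, 10.9, 22.6 and 19.6 CPM in kappa cells of the libraries in the same order, higher in lambda in 4 of 4. Spp1 (3.06), C3 (1.83), Fabp4 (1.66) and Tgfbi (1.26) were the others, and none of them could be tested in the restricted cells. Spp1, osteopontin, had 69 UMIs in 6 of 382 lambda cells, with 51 of them in 2 cells. The alveolar macrophage list stood at 676 to 928 CPM (Lmna KO) and 692 to 1389 CPM (WT) in lambda cells, with a single cell holding 74.6% to 92.9% of it in each library. In kappa cells it stood at 98.1 to 146 CPM (Lmna KO) and 895 to 898 CPM (WT), and lambda cells had the higher value in every library but the second WT one. The monocyte and neutrophil list stood at 4151, 464, 3125 and 4364 CPM in lambda and 2358, 2183, 1701 and 1765 CPM in kappa cells of Lmna KO 1, Lmna KO 2, WT 1 and WT 2, with the higher value in lambda cells in every library but the second Lmna KO one. Their part in the calls of myeloid genes was not tested beyond the restricted cells.

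Lower in both fits were H2-Eb2, Stat4, a transcription factor of interleukin-12 signalling (-1.14 ± 0.17, adjusted p = 0.000333), Tmem108 (-0.88), Gpr137c (-0.87), Hs3st1, a heparan sulphate sulphotransferase (-0.86), Gimap7 (-0.81) and Pxdc1 (-0.81). Stat4 had 28.5, 28.8, 36.8 and 29 CPM in lambda and 57.2, 78.6, 68.8 and 68.9 CPM in kappa cells, with no overlap. Satb1, a chromatin organiser, had 277, 370, 331 and 263 CPM in lambda and 476, 492, 488 and 408 CPM in kappa cells (-0.60 ± 0.08, adjusted p = 8.1e-05). Cfap43 (-0.85) and Sfn (-0.79) passed over all cells. Jchain, which links IgM and IgA polymers in plasma cells, had the largest fold change, -8.56. It had 6 UMIs over all lambda cells, each in a different cell, and 18556 in kappa cells, 99.6% of them in 13 cells. With so few lambda UMIs the fitted size depends on the prior count, and in the restricted cells Jchain did not pass (adjusted p = 0.114). Of 12 plasma cell list genes measured there, Mzb1 and Prdm1 (1.93) were higher and 0 lower, with a median of -0.15. Of all genes there, 0.969% were higher and 0.791% lower. Prdm1 was low in both classes, at 7.41, 9.63, 25.7 and 17.6 CPM in lambda and 1.83, 2.57, 6.15 and 5.06 CPM in kappa cells of Lmna KO 1, Lmna KO 2, WT 1 and WT 2. Under the limits of 500 genes and 5% mitochondrial UMIs, which left 3 to 11 lambda cells a library, the fold changes of Stat4, Cxcr4, Junb and Zeb2 changed sign.

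Inside the lambda cells, 1 of 3648 genes separated Iglc2/3-type from Iglc1-type cells (0.0274%): Il1b, the inflammatory cytokine interleukin-1 beta, with a log2 fold change of 1.33 ± 0.24 (adjusted p = 0.0395). It had 306, 35.8, 90.2 and 602 CPM in Iglc2/3-type cells and 102, 27.9, 12.9 and 300 CPM in Iglc1-type cells of Lmna KO 1, Lmna KO 2, WT 1 and WT 2. Of its 317 UMIs in lambda cells, 262 lay in 7 cells, and it could not be tested in the restricted cells, where Gm42418 was the 1 gene called of 2579 (0.0388%). Of the 3648 genes, 167 had an unadjusted p under 0.05, and DESeq2 called none. Without the first Lmna KO library 60 genes were higher and 17 lower, and without the second Lmna KO or the first WT library none was higher. Cr2 stood at 119, 80.4, 42.9 and 17.5 CPM in Iglc2/3-type and 138, 151, 155 and 153 CPM in Iglc1-type cells (-1.27, adjusted p = 0.813). Vpreb3 had a UMI in 41.7% to 53.1% of Iglc2/3-type and 61.4% to 78.7% of Iglc1-type cells of a library, but its summed level did not pass (-0.51, adjusted p = 0.961).

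Between genotypes, lambda cells of Lmna KO lungs had less RNA of 10 ribosomal protein genes than those of WT lungs. They also had less of mt-Atp8, Atp5k and Pet100, which serve mitochondrial respiration. Genes known from monocytes were lower in the sums as well, among them Csf1r, whose UMIs lay in 15 of 382 lambda cells. Of 6110 genes, 1 was higher and 21 lower in Lmna KO (0.36% called, 0.0164% higher and 0.344% lower; edgeR, 2 against 2 libraries). Among the restricted cells 0 were higher and 25 lower of 5021 (0.498%), 15 of them also lower over all cells. With 0 higher, 287 genes there had an unadjusted p under 0.05 in either direction, and DESeq2 also called none higher over all cells. The counts moved with each library left out: 19 higher and 112 lower without Lmna KO 1, 27 and 72 without Lmna KO 2, 0 and 5 without WT 1, and 12 and 68 without WT 2. These are sums over cells of the class, so a change within each cell and a change in which cells the class holds cannot be told apart.

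Lmna itself, which encodes lamins A and C of the nuclear envelope, had 11 and 1 UMIs in lambda cells of Lmna KO and 24 and 18 in WT. The levels were 21.8 and 2.33 CPM in Lmna KO and 46.5 and 39 CPM in WT (log2 fold change -1.73 ± 0.56, adjusted p = 0.386), without overlap and without passing the test. A single cell held 4 of the 11 UMIs in the first Lmna KO library and 7 of the 24 in the first WT library. In the restricted cells 9 and 1 UMIs remained in Lmna KO and 13 and 5 in WT. Of 16 nuclear envelope genes measured, none passed, with Lmnb1 at -0.50 and Lbr at -0.29.

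Of 85 ribosomal protein genes, 10 were lower in Lmna KO lambda cells and none higher, against 0.344% of all genes lower. Rps28 had 1330 and 1620 CPM in Lmna KO and 4480 and 3500 CPM in WT (-1.44 ± 0.15, adjusted p = 0.000816). Rpl38 had 1220 and 1580 CPM in Lmna KO and 3830 and 2860 CPM in WT (-1.25 ± 0.17, adjusted p = 0.00748). The genotypes did not overlap for either gene. Rpl35, Rps21, Rpl41, Rpl39, Rpl37, Rpl37a and Rpl36 had log2 fold changes of -1.11 to -0.85. The median over the 85 genes was -0.05, close to the 0 over all genes, and Rplp0 and Rpl3 had -0.04 and 0.12.

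Many of the genes that fell had short transcripts. The 21 lower genes had a median annotated length of 611 bases, against 1978 over all genes tested. Of 130 genes under 500 bases 7 were lower, and of 5979 genes of 500 bases and over 14 were. mt-Atp8, a subunit of the mitochondrial ATP synthase and 204 bases long, had 41.7 and 72.3 CPM in Lmna KO and 228 and 176 CPM in WT (-1.85 ± 0.26, adjusted p = 0.00748). Atp5k, another subunit (-1.39), Pet100, an assembly factor of cytochrome oxidase (-1.48), Snrpg, a splicing protein (-1.23), Dbi (-1.32) and Gm10076 (-1.75) were also lower. In the restricted cells Dbi no longer passed, while Rps29 (-1.34), Rps27 (-1.11), Rpl36a (-0.82), mt-Nd4l (-1.42), mt-Nd3 (-0.83), mt-Nd5 (-0.73), Crip1 (-1.94), Tagap1 (-2.09), S100a6 (-1.82) and Nfkbid (-2.10) passed there and not over all cells. The rule limited the joint share of UMIs from mitochondrial genes. The tests of mt-Atp8 and the other mt- genes were thus made on cells chosen partly by those UMIs.

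The same short transcripts were low in Lmna KO in the other cells. On a CPM scale set by the UMIs of each class alone, Rps28 had 1520 and 1720 in Lmna KO and 4300 and 3290 in WT kappa cells. In T cells it had 1930 and 2320 in Lmna KO and 6280 and 3480 in WT, against 1310 and 1550 in Lmna KO and 4240 and 3290 in WT lambda cells. These comparisons share their libraries, and whether RNA quality or library preparation differed between the genotypes was not tested.

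**Figure D5:**
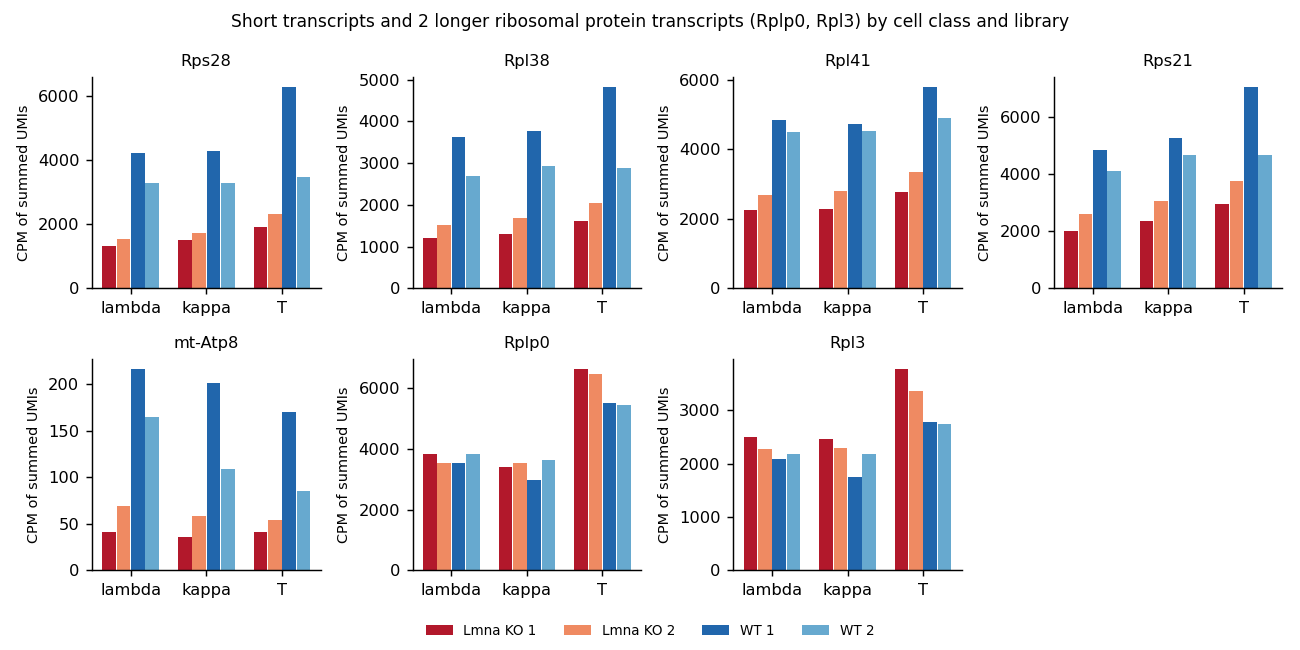
CPM of summed UMIs of 5 short transcripts and of Rplp0 and Rpl3, which are longer, in lambda, kappa and T cells of each library, Lmna KO left of WT. The Lmna KO bars are lower than the WT bars for the short transcripts in each class, overlap them for Rplp0 in lambda cells and lie above them for Rpl3 in lambda cells.

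Besides these, Egr1, an early response gene, had 23.8 and 21 CPM in Lmna KO and 149 and 78 CPM in WT lambda cells (-2.34 ± 0.37, adjusted p = 0.0126), but 60 of its 77 UMIs in the first WT library lay in 2 cells. Csf1r (-2.53), Cx3cr1 (-4.03), Cd300a (-2.74) and Ms4a6c (-1.74), genes known from monocytes and macrophages, were lower as well. Csf1r had 99 UMIs in 15 of 382 lambda cells. The monocyte and neutrophil list stood at 464 to 4151 CPM in Lmna KO and 3125 to 4364 CPM in WT, so its ranges overlapped. In the restricted cells Ms4a6c had 0.01, and Egr1, Csf1r, Cx3cr1 and Cd300a could not be tested. Csf1r is among the genes whose UMIs chose those cells. Cd63, a tetraspanin of late endosomes, was the higher gene, with 69.4 and 72.3 CPM in Lmna KO and 3.87 and 17.3 CPM in WT (2.75 ± 0.46, adjusted p = 0.0134), and 57 of its 76 UMIs lay in 3 cells.

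The next genes by p-value did not pass: H2-Q7, a class I molecule, had 260 and 343 CPM in Lmna KO and 136 and 167 CPM in WT (0.99, adjusted p = 0.0529), and H3f3b, Tspyl1 and Gadd45g had 0.56, 1.73 and 1.51. None of the 15 class II genes passed between genotypes, although 14 had positive fold changes (median 0.21, against 0 over all genes). None of 13 p53 target genes and none of 16 interferon-stimulated genes passed. Cd79a, Cd79b, Ms4a1 and Ighm had 0.23, 0.22, 0.14 and 0.14. Vpreb3 had 508 and 441 CPM in Lmna KO and 250 and 392 CPM in WT (0.57, adjusted p = 0.484).

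In kappa cells, 27 genes were higher and 183 lower in Lmna KO of 10118 (2.08%, with 0.267% higher and 1.81% lower), and 4 and 49 of 9499 in the restricted cells (0.558%, with 0.0421% higher and 0.516% lower). Of 85 ribosomal protein genes 11 were lower there. The difference between the genotype effects in lambda and kappa cells passed for 20 genes with a more positive and 9 with a more negative effect in lambda cells, of 9772 (0.297%, with 0.205% and 0.0921%). It passed in the restricted cells for 0 and 3 of 8947 (0.0335%), which were Crip1, Ighg2b and Nfkbid. In cells with no UMI of a shorter list of other lineages (Cd3d, Cd3g, Trac, Trbc1, Trbc2, Lyz2, S100a8 and Nkg7) it passed for none. No ribosomal protein gene passed for this difference. Of the 20 genes whose difference was positive, 7 were on the alveolar macrophage list.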

How the data were processed

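Raw UMI counts per gene and cell were deposited by the authors for 4 libraries. Cell Ranger 3.0.2, Seurat 3.0.0 and the mm10 build are named in the submitters' processing notes. Here the counts were read with Python 3.11.15, with no ambient RNA correction, and doublets were marked by simulated doublets (0.8% per 1000 cells) but kept. Shares of cells with a UMI were also computed after thinning each cell to 1500 UMIs, which left out 3 of 382 lambda cells.

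UMIs were summed per library and class and tested with edgeR 4.0.16 (R 4.3.3, filterByExpr, TMM, quasi-likelihood F-test, Benjamini-Hochberg adjustment over all genes). Lambda against kappa had the library as a block, and genotypes were compared without one. Values in CPM are edgeR's normalised values of the sums, unless said to be scaled by the UMIs of the class alone. Light chain genes and the other genes named singly in the rule were left out of the counts of calls. Gm30211, which overlaps Igkc and was chosen after its values were seen, was left out too. Mitochondrial genes, whose joint share of UMIs the rule limited, stayed in the counts. The fits were tested on simulated data: at a 2-fold change, 82% of changed genes were recovered for lambda against kappa, 56% for genotypes in lambda cells and 26% for the difference between the genotype effects. False calls there were 10 of 169, 20 of 160 and 8 of 101. The changed genes had a mean of at least 20 UMIs per sum, so recovery of genes with fewer UMIs was not measured. Apart from depth and the changes put in, the simulated means did not differ between libraries. Single values had an exact permutation test, and intervals are exact (Clopper-Pearson). Alternatives included DESeq2 1.42.0, doublet removal, stricter cells, stricter light chain assignment and each library left out. Replicates of a group differed by more than sampling noise. Replicate numbers are shared by the genotypes, but nothing in the labels ties libraries of the same number.

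Named genes were up to 10 highest and 10 lowest fold changes past an adjusted p of 0.05 with at least 20 CPM in the higher group and the same direction in every library (or no overlap between genotypes), without model genes, and up to 4 members of each list by p. Genes named beyond it, such as the list members called, Satb1 and those called in the restricted cells, were chosen after their values were seen. The members, lists and rule were chosen with earlier results of these data known. Coordinates and transcript lengths are from GENCODE M21, which held 31011 of the 31053 genes, and promoters are from RefSeq. Some members of the lists are counted but not reported here by name.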

Additional observations from a re-analysis of the deposited data

Results flagged for a closer look

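The effect of the Lmna KO genotype differed between lambda and kappa cells, by an interaction term in edgeR, for 29 of 9772 genes: 20 with a more positive effect in lambda cells and 9 with a more negative one. The named genes on the positive side were Krt79 (a log2 difference of 8.18), Atp6v0d2 (7.82), Krt19 (7.68), Ear1 (6.96), Lpl (6.63), Ctsk (6.34), Marco (5.55), Plet1 (4.80), Mt1 (4.78) and Mrc1 (2.94). Krt79, Atp6v0d2, Ear1, Marco, Plet1 and Mrc1 are on the alveolar macrophage list. Lpl, lipoprotein lipase, had 120 and 95.3 CPM in lambda cells of Lmna KO and 84.2 and 103 CPM in lambda cells of WT. In kappa cells it had 0.274 and 1.29 CPM in Lmna KO and 69.8 and 76.2 CPM in WT. The kappa cells of Lmna KO thus stood apart. Krt79 and Atp6v0d2 had no UMI in them, so that their sizes are fitted values and no bounds. The alveolar macrophage list summed to 676 to 928 CPM in Lmna KO and 692 to 1389 CPM in WT lambda cells, and to 98.1 to 146 CPM in Lmna KO and 895 to 898 CPM in WT kappa cells. A single lambda cell held 74.6% to 92.9% of the list's UMIs in each library, so the lambda values of these genes rest on few cells.

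On the negative side stood F13a1 (-3.90), Cd300a (-3.24), Csf1r (-2.50), Cd14 (-2.48), Egr1 (-2.17), Ms4a6c (-1.76), Klf4 (-1.68), Cebpb (-0.93) and Cybb (-0.66). Egr1 had 22.5 and 19.9 CPM in Lmna KO and 141 and 74.2 CPM in WT lambda cells, against 60.5 and 84.1 CPM in Lmna KO and 77.8 and 82.0 CPM in WT kappa cells. With cells of 5 or more UMIs of other cell types left out, Egr1 (-0.72), Ms4a6c, Klf4, Cebpb and Cybb did not pass, and the other named genes could not be tested.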

How the results depend on the processing

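Under limits of 500 genes and 5% mitochondrial UMIs, which left 3 to 11 lambda cells a library, the Lmna KO minus WT difference of the lambda share was -8.16 points and that of the Iglc1-type share 13.94 points. There 0 genes were higher and 8 lower in lambda than kappa cells, with Cxcr4 at 0.26, Junb at 0.03, Zeb2 at -0.05 and Stat4 at 0.15. Between genotypes 0 and 0 passed in lambda cells (Snrpg 0.18) and 2 and 0 in kappa cells. The difference between the genotype effects then had 1 gene on the positive side, and Plet1 turned to -6.01. The constant gene types could not be compared, for want of a library with 10 cells of each. Igkc was seen in 52.87% of thinned lambda cells, in 44.17% under these limits and in 22.32% with stricter light chain assignment. For Iglc2 in kappa cells 77.63% became 69.91%, 64.47% and, thinned to 1000 UMIs, 68.18%. The depth difference was -23 UMIs without doublets and -61.8 in the restricted cells.

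Higher and lower counts for lambda against kappa were 37 and 27 without cells holding listed genes of other lineages, 44 and 31 with DESeq2, 133 and 237 without the expression filter, 1 and 2 without the library block, 29 and 20 in Lmna KO libraries alone, and 45 and 14 in WT libraries alone. For genotypes in lambda cells they were 0 and 8 with stricter light chain assignment, 0 and 25 in the restricted cells, 0 and 22 with DESeq2, 18 and 122 without the filter, and 2 higher without immunoglobulin genes. In kappa cells they were 12 and 75 without doublets, 4 and 40 without other lineages, 4 and 49 in the restricted cells, 103 lower with DESeq2, and 114 and 361 without the filter. For the difference between the effects they were 14 lower without doublets, 10 and 32 with stricter light chain assignment, 0 and 0 without other lineages (337 genes at an unadjusted p under 0.05, edgeR), 0 and 3 in the restricted cells, 10 and 0 with DESeq2, 34 and 31 without the filter, and 11 and 2 without the library block. Iglc2/3-type against Iglc1-type gave 0 higher with stricter assignment, without other lineages, without immunoglobulin genes and with DESeq2, and 43 and 17 without the filter. Ms4a6c between genotypes in lambda cells was 0.49 without other lineages and 0.01 in the restricted cells. For the difference, Ms4a6c was 0.17, Klf4 0.26 and Cebpb 0.94 without other lineages, and Klf4 0.16 and Cebpb 0.94 in the restricted cells. The cause of these changes was not tested.

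With each library left out, the lambda share difference was -0.24 to 1.06 points, the Iglc1-type difference -8.84 to -2.2, the depth difference 28.2 to 123.8 UMIs, Igkc in lambda cells 50.23 to 54.17%, Iglv1 3.207 to 5.814% and Iglc2 in kappa cells 76.6 to 78.82%. Counts higher and lower ranged over 31 to 64 and 29 to 66 (lambda against kappa), 0 to 27 and 5 to 112 (genotypes in lambda), 29 to 85 and 97 to 274 (genotypes in kappa), 13 to 21 and 1 to 20 (difference), and 0 to 60 and 0 to 17 (constant gene types). Where 1 library of a genotype was left, it was assumed to vary like the other pair.

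Same-numbered libraries deviated from their group means with a correlation of -0.14 in lambda and 0.094 in kappa cells. The replicate block gave 3 and 43 genes in lambda cells and 19 and 91 in kappa cells, and the crossed pairing, added after the data had been seen, 10 and 96 in lambda cells. Of 634 gene and setting pairs for lambda against kappa, 383 kept their direction and call, 247 lost the call and 4 turned. For genotypes in lambda cells these were 233, 60 and 3 of 296. Lambda cells numbered 87 to 103 a library. On simulated data of this size 24% of genes changed 1.5-fold, 56% of those changed 2-fold and 100% of those changed 4-fold between genotypes were recovered. The changed genes were drawn from those with more UMIs, as stated above.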
